A study of Homo sapiens with 9 samples.

Results

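The cytochrome P450 genes were examined in SNU-398, a human hepatocellular carcinoma (HCC) cell line, with and without overexpression of the homeobox gene EMX1. All gene names made of CYP, a family number, subfamily letters and a gene number were taken, without CYP1A1, CYP1B1 and CYP51A1, which gave 53 of the 60642 gene names listed. RNA-seq libraries came from 3 groups of 3: vector control cells, whose genotype is labelled wild type, cells overexpressing full-length EMX1 (EMX1-FL), and cells overexpressing EMX1-X1, a splice isoform with another terminal exon that lacks part of the DNA-binding homeodomain. By the labels the overexpressing lines were made with lentivirus as stable lines, and the cells of all 3 groups, the control included, went through selection for puromycin resistance. The study calls replicates of these lines biological, without saying in the sources used here whether each library came from a separate culture or a separately selected line. The p-values below therefore measure the spread between these libraries.

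P450 enzymes are heme proteins that insert oxygen into lipids, steroids, vitamins and drugs. Those of the endoplasmic reticulum take electrons from the reductase POR, and those of mitochondria from FDXR through the ferredoxin FDX1. Hepatocytes hold most drug-metabolizing P450 of the body, and transcription of those genes there depends on HNF4A and on the receptors NR1I2 (PXR), NR1I3 (CAR) and AHR, whereas enzymes of vitamin D, retinoid and fatty acid metabolism are also used outside the liver.

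Each library had 21562703 to 25197970 read pairs on genes. EMX1 was at 9.34, 9.99 and 12.9 CPM (counts per 1000000 counted read pairs, TMM-normalized) in vector control libraries 1 to 3, at 251, 135 and 145 in EMX1-FL and at 145, 294 and 288 in EMX1-X1, counted per gene and thus without telling the isoforms apart. The libraries also fell on 2 sides of the first principal component, which held 39.6% of the variance. Side A held vector control 1 and 2, EMX1-FL 2 and 3 and EMX1-X1 1. Side B held vector control 3, EMX1-FL 1 and EMX1-X1 2 and 3. In each group the side B libraries also had the higher EMX1 level, and the part of the EMX1 level in the sides was not tested. Differences within each side are therefore given beside the genes described in full below. They are of log2(CPM + 0.5), where the added 0.5 shrinks the fold of low genes. For such genes they are not on the scale of the edgeR fold changes. Side B has 1 library each of vector control and EMX1-FL, and side A has 1 of EMX1-X1. Differences that use these groups there rest on a single library and have no spread. The label of an HCC line was checked against hepatocyte markers, and these were nearly absent. Summed over 9 of them, the level in vector control libraries was 0.569 to 1.06 TPM (transcripts per 1000000, a level per length), with TTR, SERPINA1, FGB, AHSG and HNF4A at 0 and ALB, the gene of serum albumin, at 0.454 to 0.705. The same sum was 1.93 to 3.8 TPM in EMX1-FL and 1.16 to 2.63 in EMX1-X1. ALB, the only one of the 9 with enough counts to test, was called in both, against 2.42% and 2.5% of all genes tested. Its log2 fold change was 1.47 with EMX1-FL (edgeR unadjusted p = 0.00722, adjusted p = 0.467) and 1.11 with EMX1-X1 (edgeR unadjusted p = 0.0314, adjusted p = 0.576). It rested on 10 to 53 read pairs per library, and the part of such markers in the differences below was not tested. The hepatoma antigen GPC3 was at 14.5 to 21.5 TPM, AFP was at 0, and 4 mesenchymal markers, VIM among them, summed to 749 to 1006 TPM in vector control, 921 to 1191 in EMX1-FL and 811 to 893 in EMX1-X1. VIM made up most of that sum. With EMX1-FL, ZEB1 was called (log2 fold change 1.22, edgeR unadjusted p = 0.0413, adjusted p = 0.837), although its groups overlapped. FN1 was at 0.60, CDH2 at 0.58 and VIM at 0.08. That made 3 of the 4 with an edgeR unadjusted p under 0.05, against 5.8% of all genes tested. With EMX1-X1 these were 2 of the 4, FN1 at 0.55 and CDH2 at 0.48, against 8.11%. There ZEB1 was at 0.51 and VIM at -0.23. Epithelial markers summed to 4.52 to 7.44 TPM in vector control, 6.57 to 9.85 in EMX1-FL and 6.4 to 9.91 in EMX1-X1. KRT18 was at 0 throughout. The 2 with enough counts to test, EPCAM and CDH1, were at 0.55 and 0.32 with EMX1-FL and 0.40 and 0.75 with EMX1-X1. Of these, only CDH1 with EMX1-X1 had an unadjusted p under 0.05 (edgeR unadjusted p = 0.0352, adjusted p = 0.584). Leukocyte and endothelial markers summed to at most 0.452 and 0.3 TPM.

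Promoter sequences from RefSeq (GRCh38.p14), 300 bases each from 250 before to 50 after a gene's start, were matched by symbol for 37 of the 53 P450 genes. The 6 below are printed to show how the density of CG dinucleotides, in capitals, differed between genes expressed in these cells and genes that were not. CYP4F22, CYP20A1 and CYP26B1 were expressed, CYP3A5 was expressed from a promoter with few CG, and CYP3A4, of the same gene cluster, and CYP2C8 were not. All read 5′ to 3′ on the gene's strand.
CYP4F22, chr19:15508275-15508574, plus strand: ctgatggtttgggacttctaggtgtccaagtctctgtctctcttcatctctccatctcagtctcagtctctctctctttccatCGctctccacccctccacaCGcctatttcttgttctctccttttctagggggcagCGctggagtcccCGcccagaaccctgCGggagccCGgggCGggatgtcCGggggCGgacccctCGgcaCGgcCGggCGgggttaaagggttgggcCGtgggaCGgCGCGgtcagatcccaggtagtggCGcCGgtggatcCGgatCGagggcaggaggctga
CYP20A1, chr2:203238768-203239067, plus strand: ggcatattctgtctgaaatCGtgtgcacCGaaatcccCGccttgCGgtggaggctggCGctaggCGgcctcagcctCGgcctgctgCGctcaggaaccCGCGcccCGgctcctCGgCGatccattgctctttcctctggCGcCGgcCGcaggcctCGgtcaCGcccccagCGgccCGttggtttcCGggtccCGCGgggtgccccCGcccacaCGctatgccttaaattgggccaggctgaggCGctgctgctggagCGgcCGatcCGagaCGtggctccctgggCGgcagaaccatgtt
CYP26B1, chr2:72147813-72148112, minus strand: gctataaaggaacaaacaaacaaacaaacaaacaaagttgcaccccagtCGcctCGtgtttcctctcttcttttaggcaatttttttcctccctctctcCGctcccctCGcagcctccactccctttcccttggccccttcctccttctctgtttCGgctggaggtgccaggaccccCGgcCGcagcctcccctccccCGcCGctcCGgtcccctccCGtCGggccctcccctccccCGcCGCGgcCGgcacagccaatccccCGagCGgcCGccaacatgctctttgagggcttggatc
CYP3A5, chr7:99679947-99680246, minus strand: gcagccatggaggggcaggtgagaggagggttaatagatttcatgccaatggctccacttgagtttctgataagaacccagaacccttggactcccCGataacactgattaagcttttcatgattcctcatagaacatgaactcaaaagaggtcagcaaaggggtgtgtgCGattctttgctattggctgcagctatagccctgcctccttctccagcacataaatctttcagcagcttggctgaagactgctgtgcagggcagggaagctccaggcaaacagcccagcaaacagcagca
CYP3A4, chr7:99784135-99784434, minus strand: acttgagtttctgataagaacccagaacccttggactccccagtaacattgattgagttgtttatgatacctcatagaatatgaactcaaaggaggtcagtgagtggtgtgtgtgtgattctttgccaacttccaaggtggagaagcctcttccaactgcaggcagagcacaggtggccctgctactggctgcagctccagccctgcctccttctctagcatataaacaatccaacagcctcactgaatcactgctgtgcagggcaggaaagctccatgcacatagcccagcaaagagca
CYP2C8, chr10:95069448-95069747, minus strand: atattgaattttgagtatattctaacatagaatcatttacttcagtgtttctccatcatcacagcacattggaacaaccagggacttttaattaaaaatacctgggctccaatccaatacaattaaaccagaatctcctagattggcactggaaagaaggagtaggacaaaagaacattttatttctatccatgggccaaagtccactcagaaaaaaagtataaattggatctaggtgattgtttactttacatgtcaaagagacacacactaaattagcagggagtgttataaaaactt

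The 8 expressed P450 genes with a sequence held a median of 22 CG in these 300 bases (range 2 to 36), against 3 (range 0 to 31) for the 26 that had too few counts to test and 14 over all 35116 windows of the table. The ratio of observed to expected CG was at least 0.6 in 6 of the 8, in 6 of the 26 and in 48.9% of all windows. CYP3A5, with 2 CG, and CYP2R1, with a ratio of 0.57, were the expressed genes below it. CYP2U1, with 31 CG, and CYP27A1, CYP2S1 and CYP26C1, with 29 each, had CG-dense promoters and nearly no counts. TATAAA, the TATA box, was found on either strand in 12 of the 26 windows (46.2%) and in 1 of the 8, against 11.5% of all windows. Windows with AGGTCA, the core that nuclear receptors bind, were 10 of the 26 (38.5%) and 2 of the 8 (25%), against 13.8% of all. GCGTG, the core of the AHR site, was in 5 of the 26 (19.2%) and 4 of the 8 (50%), against 36.5%. TAATTA, a core that many homeodomains bind and which reads alike on both strands, was in 5 of the 26 (CYP3A43, CYP2C19, CYP2C8, CYP2A6 and CYP2A7), in none of the 8 expressed genes, and in 4.84% of all windows. A match of letters is no evidence that a factor binds there, and the methylation of these sites was not measured in these libraries.

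**Figure D1:**
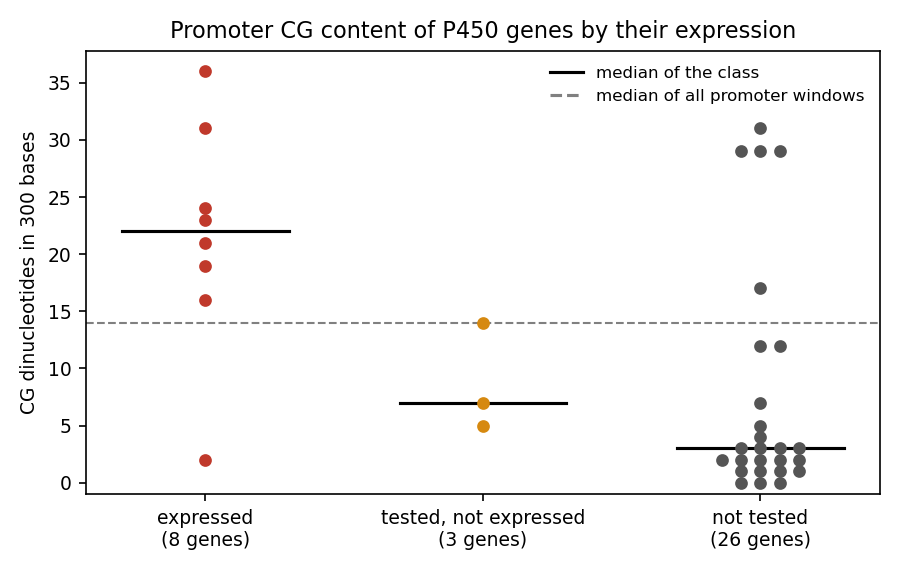
CG dinucleotides in the 300-base promoter window of each P450 gene with a RefSeq sequence (points), by expression in these cells; black bars are class medians and the dashed line is the median of all 35116 windows. The medians were 22, 7 and 3, and the expressed gene with the fewest CG is CYP3A5.

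In vector control cells 11 of the 53 P450 genes (20.8%) were expressed, that is at 1 TPM or more in each of the 3 libraries, against 26.5% of all gene names listed. In order of their mean level these were CYP4F22, CYP2R1, CYP20A1, CYP2D6, CYP2J2, CYP4V2, CYP26B1, CYP27B1, CYP39A1, CYP3A5 and CYP2D7. The ranges of the 3 libraries of the first 4 genes did not overlap with each other, and from CYP2D6 down each gene overlapped the next. Just inside the threshold lay CYP39A1 with a lowest library of 1.04 TPM, and just outside lay CYP2W1, an enzyme described in tumours, at 0.969, 1.23 and 1.11. Another 32 P450 genes were counted, in at least 1 library, but too seldom to test, and 6 (CYP4B1, CYP4F3, CYP11A1, CYP11B1, CYP2A13 and CYP2C8) had 0 counts in all 9 libraries. In all, 21 P450 genes had 0 counts in every vector control library, which allows up to 3 counts, or 0.119 to 0.13 CPM, in a library, counting error only.

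**Figure D2:**
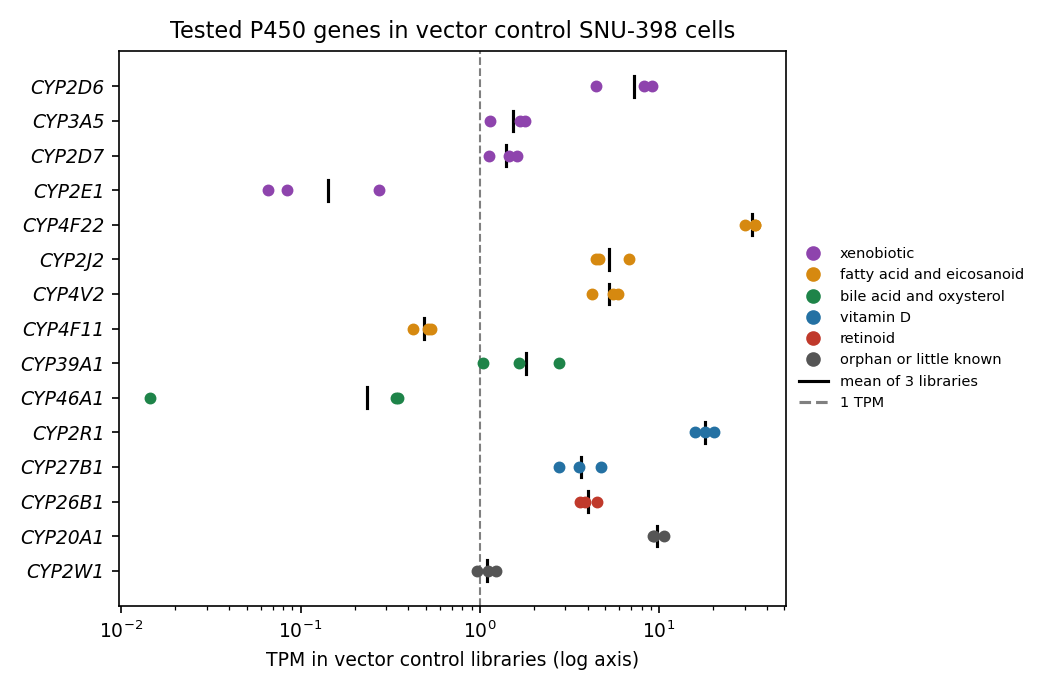
Level in TPM (log axis) of the 15 tested P450 genes in each of the 3 vector control libraries (points), coloured by role, with the mean (bar) and the threshold of 1 TPM (dashed). CYP4F22, with a mean of 32.9 TPM, and CYP2R1, with 18.1, stand above the rest, and CYP2E1, CYP46A1 and CYP4F11 lie below the threshold.

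The genes grouped with the enzymes that clear drugs and other foreign compounds were mostly silent: 3 of 17 were expressed. These 3 include CYP2D7, which is not counted as a working enzyme below. CYP2D6, which oxidizes many basic drugs, was at 8.29, 9.15 and 4.45 TPM, with vector control 3 lowest. CYP3A5, a relative of CYP3A4, was at 1.69, 1.78 and 1.14 TPM. CYP2D7, a mostly inactive copy beside CYP2D6 and listed as a polymorphic pseudogene in GENCODE 29, was at 1.45, 1.62 and 1.12 TPM. CYP3A4, the main drug-metabolizing enzyme of liver, was at 0.188, 0.552 and 0 TPM, and CYP2B6, CYP1A2 and CYP2C19 had between 1 and 8 counts each over all 9 libraries. CYP2E1, the ethanol-oxidizing enzyme, had enough counts to test but lay at 0.0661 to 0.275 TPM, and 23.9% of its exon bases overlap other genes. The counts of CYP2D6 and CYP2D7, and of the CYP2A and CYP3A genes, are uncertain, since by the default of the counting program read pairs that map to several near-identical copies are not counted.

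Of the fatty acid and eicosanoid enzymes 3 of 12 were expressed. CYP4F22, a hydroxylase of ultra-long-chain fatty acids that the skin barrier needs, had the highest level of the 53 P450 genes at 30.1, 34.2 and 34.5 TPM. CYP2J2, an epoxygenase of arachidonic acid, was at 4.6, 6.76 and 4.48 TPM, and CYP4V2, a fatty acid hydroxylase known from the retina, at 5.55, 5.88 and 4.25 TPM. The hepatic CYP4A11, CYP4F2 and CYP4F12 had 2 counts each over the 9 libraries. CYP4F11 was at 0.425 to 0.534 TPM.

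Vitamin D enzymes were the role with the largest expressed share, 2 of 3. CYP2R1, the 25-hydroxylase of vitamin D, was at 20.3, 18.1 and 15.9 TPM, and CYP27B1, the enzyme that makes the active hormone, at 4.75, 2.75 and 3.56 TPM. CYP24A1, which breaks the hormone down, was at 0.359, 0 and 0.0674 TPM. Among the retinoid enzymes CYP26B1, which clears retinoic acid, was at 3.62, 4.5 and 3.86 TPM, while CYP26A1 reached 0.272 TPM and CYP26C1 had 0 counts. Of the bile acid and oxysterol enzymes only CYP39A1, a hydroxylase of oxysterols, was expressed, at 2.76, 1.65 and 1.04 TPM, where vector control 1 was highest. CYP7A1, the rate-limiting enzyme of bile acid synthesis, had 1 count in all 9 libraries. None of the 6 steroid hormone enzymes was expressed. CYP20A1, an orphan enzyme with no known substrate, was at 9.2, 10.6 and 9.33 TPM and was the only expressed gene of the 5 orphan or little known ones.

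The 53 genes together summed to 96.6, 102 and 86.8 TPM in vector control libraries, and the 11 expressed genes held 94.7 to 96.3% of it. Where they lie was uneven: 25 of the 53 sit in 5 gene clusters, the CYP2 and CYP4F clusters of chromosome 19, CYP3A of chromosome 7, CYP2C of chromosome 10 and CYP4 of chromosome 1. Of these 25, CYP4F22 and CYP3A5 were expressed, against 9 of the 28 outside. CYP2D6 and CYP2D7, neighbours on chromosome 22 and both expressed, were counted as outside, so the contrast depends on which loci are taken as clusters. CYP4F22 (chr19:15508525-15552317, GRCh38, as all gene positions here) is the outermost gene of its cluster, and its 5 neighbours there were each below 1 TPM in all vector control libraries.

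Whether these genes differ with EMX1-FL or EMX1-X1 was then tested in an edgeR fit over all 18574 genes tested, of which 15 were P450 genes: the 11 expressed ones and CYP2W1, CYP46A1, CYP4F11 and CYP2E1. In no comparison was any of these 15 called at the study's threshold for DEGs (unadjusted p under 0.05 and absolute log2 fold change of at least 1). None was called at that fold with an adjusted p under 0.05 either. With EMX1-FL against vector control 0 of 15 were called, against 2.42% of all genes tested (0.07% with the adjusted p). With EMX1-X1 against vector control 0 of 15 were called, against 2.5% (0.00538%), and with EMX1-FL against EMX1-X1 0 of 15, against 1.42% (0% adjusted). Against backgrounds this low, a count of 0 in 15 is no result about these genes. At an unadjusted p under 0.05 and any fold there were 2, 3 and 2 of the 15 (13.3%, 20% and 13.3%), against 5.8%, 8.11% and 7.63% of all genes tested. DESeq2 called 0 in each comparison, and limma on log2(TPM + 0.1) called CYP2D7 with EMX1-X1.

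The median log2 fold change of the 15 was 0.09 with EMX1-FL, 0.07 with EMX1-X1 and -0.01 between them, against 0.04, 0.01 and 0.02 for all genes tested. With EMX1-FL 10 were above 0 and 5 below, and likewise with EMX1-X1. The 95% intervals of 9, 8 and 8 of the 15 reached an absolute log2 fold change of 1, so for these genes a change of that size stays within the interval at this depth. For the remaining 6, 7 and 7 the whole interval lay within 1. Both comparisons with vector control use the same 3 control libraries and are therefore not independent. Since the libraries are bulk RNA, fewer cells expressing a gene and less RNA per cell cannot be told apart.

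**Figure D3:**
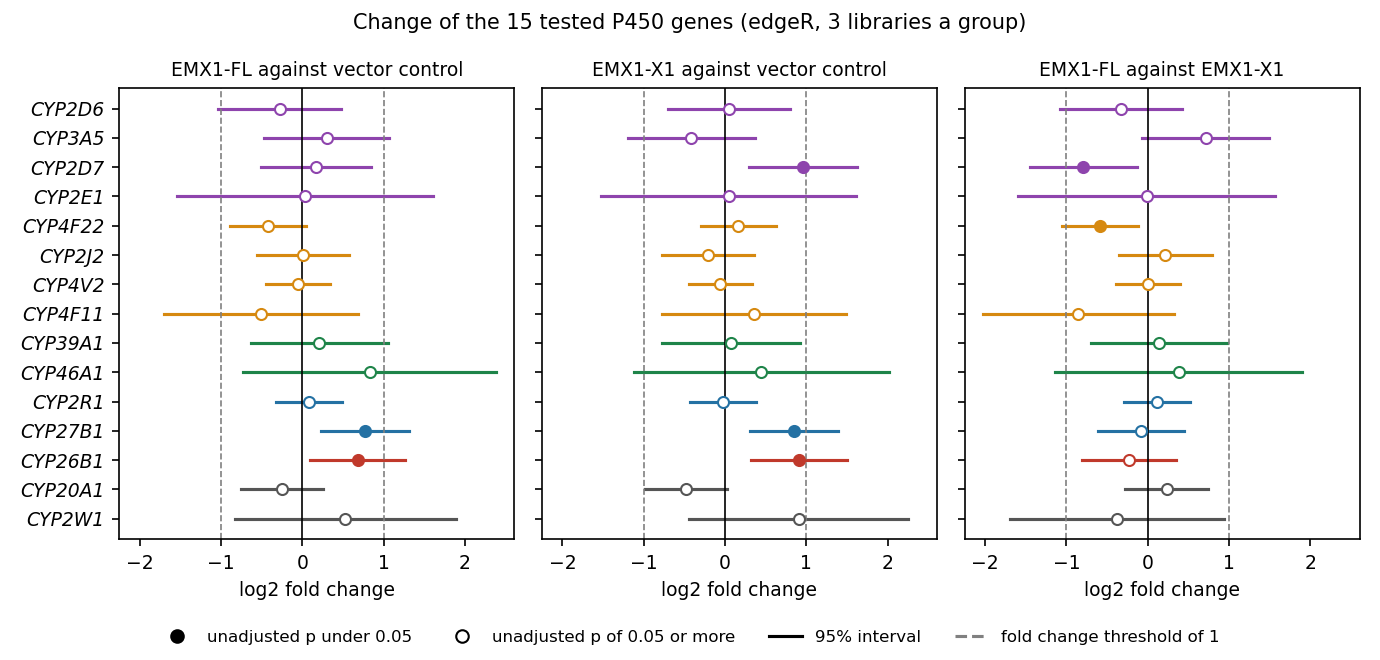
Log2 fold change (points) and 95% interval (lines) of the 15 tested P450 genes in the 3 comparisons, from edgeR with 3 libraries a group; filled points have an unadjusted p under 0.05 and dashed lines mark the threshold of 1. CYP26B1 and CYP27B1 are filled in both comparisons with vector control, CYP2D7 with EMX1-X1 and between isoforms, and CYP4F22 between isoforms, and no filled point is beyond the dashed lines.

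CYP26B1 (chr2:72129238-72148038, minus strand), whose product lowers retinoic acid and whose promoter is printed above, was counted at 4.88, 6.33 and 5.93 CPM in vector control, at 12.1, 9.6 and 5.73 in EMX1-FL and at 9.2, 12.1 and 10.9 in EMX1-X1. Every EMX1-X1 library was above every vector control library, whereas EMX1-FL 3 lay within the control range. The log2 fold change was 0.91 with EMX1-X1 (standard error 0.27, edgeR unadjusted p = 0.00554, adjusted p = 0.482) and 0.68 with EMX1-FL (standard error 0.27, edgeR unadjusted p = 0.0271, adjusted p = 0.774). Neither passed the adjusted threshold. Within side A the differences in log2 CPM were 0.68 with EMX1-X1 and 0.39 with EMX1-FL, and within side B 0.90 and 0.97. Without EMX1-FL replicate 1, the highest library of that group, the log2 fold change with EMX1-FL was 0.43. The isoforms did not differ beyond the spread (-0.23, 95% interval -0.81 to 0.35).

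CYP27B1 (chr12:57762334-57768986, minus strand), the 1-alpha-hydroxylase of vitamin D, was at 4.2, 2.53 and 3.59 CPM in vector control, 5.99, 4.93 and 6.65 in EMX1-FL and 5.28, 6.78 and 6.54 in EMX1-X1. All 6 overexpression libraries were above the 3 control libraries, and both overexpression groups overlapped each other. The log2 fold change was 0.77 with EMX1-FL (standard error 0.25, edgeR unadjusted p = 0.00962, adjusted p = 0.536) and 0.85 with EMX1-X1 (standard error 0.25, edgeR unadjusted p = 0.00514, adjusted p = 0.482). Within side A the differences were 0.72 with EMX1-FL and 0.62 with EMX1-X1, and within side B 0.67 and 0.81. Leaving out vector control 1, the highest control library, brought the value with EMX1-X1 to 1.01 and past the threshold for DEGs. Leaving out vector control 2, the lowest, brought it down to 0.654, and the value with EMX1-FL to 0.572. The counts behind these values were 58 to 98 read pairs per control library and 117 to 163 per overexpression library. The receptor of the hormone, VDR, stood at 4.41, 4.23 and 6.39 CPM in vector control and at 8.53, 10.0 and 9.17 in EMX1-X1, without overlap (log2 fold change 0.88, edgeR unadjusted p = 0.0047, adjusted p = 0.469). With EMX1-FL, VDR was at 9.23, 5.65 and 5.96 CPM and overlapped the control (0.47, edgeR unadjusted p = 0.0901, adjusted p = 0.959). Within side A the VDR differences were 0.90 with EMX1-X1 and 0.39 with EMX1-FL, and within side B 0.55 and 0.50.

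CYP2D7 (chr22:42140203-42149455, minus strand) was at 1.5, 1.75 and 1.32 CPM in vector control, 2.26, 1.56 and 1.29 in EMX1-FL and 2.58, 2.91 and 3.39 in EMX1-X1. The EMX1-X1 libraries stood above all 6 others. The log2 fold change of EMX1-X1 was 0.96 against vector control (standard error 0.30, edgeR unadjusted p = 0.00826, adjusted p = 0.515), and that of EMX1-FL against EMX1-X1 was -0.79 (standard error 0.30, edgeR unadjusted p = 0.022, adjusted p = 0.611). The first of these lay near the fold threshold and passed it without vector control 2 (1.05), without EMX1-X1 1 (1.03) and with limma on log2(TPM + 0.1) (1.01). The second passed it without EMX1-FL 1 (-1.03). Within side A these differences were 0.54 and -0.68, and within side B 1.00 and -0.40, shrunk by the added 0.5 CPM. CYP2D7 rested on 28 to 84 read pairs per library. CYP2D6 (chr22:42126499-42130881, minus strand), its active neighbour, was at 5.4, 6.2 and 3.3 CPM in vector control, 6.52, 2.86 and 2.86 in EMX1-FL and 4.91, 5.15 and 5.33 in EMX1-X1, with overlap in all comparisons and log2 fold changes of -0.28, 0.05 and -0.33.

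CYP4F22 was at 21.2, 25.01 and 27.6 CPM in vector control, 21.9, 17.0 and 16.1 in EMX1-FL and 21.1, 32.1 and 29.5 in EMX1-X1. The groups overlapped in every comparison, with EMX1-FL lowest on average. The log2 fold change was -0.43 with EMX1-FL (standard error 0.21, edgeR unadjusted p = 0.0707), 0.16 with EMX1-X1 (standard error 0.21, edgeR unadjusted p = 0.454), and -0.59 between EMX1-FL and EMX1-X1 (standard error 0.21, edgeR unadjusted p = 0.0177, adjusted p = 0.611). Side B libraries were higher than side A libraries in each group, and the difference between isoforms was -0.35 within side A and -0.48 within side B.

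**Figure D4:**
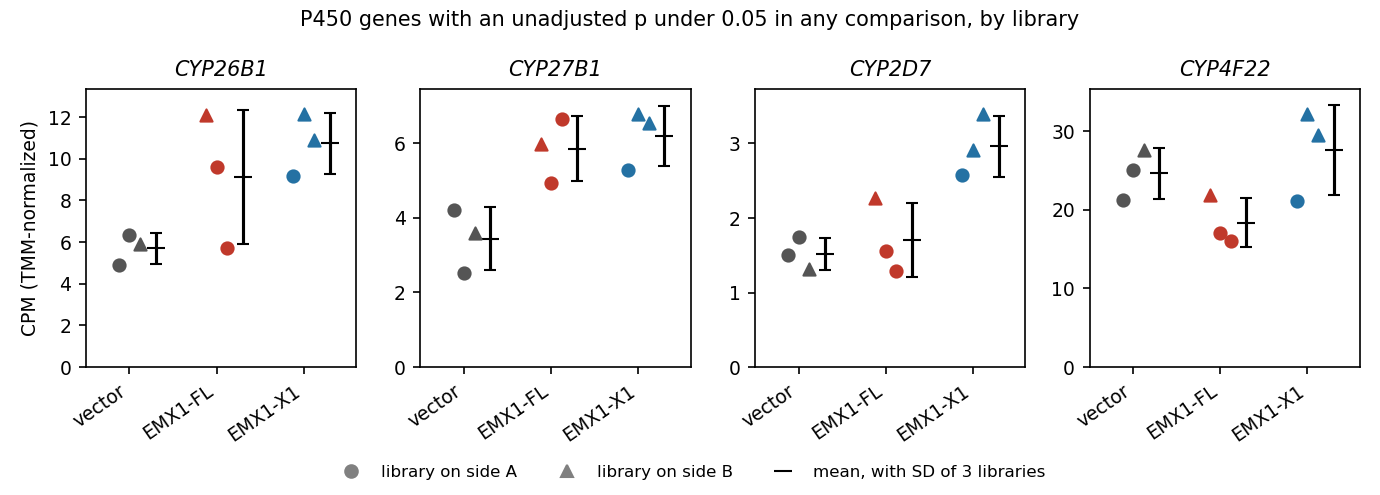
TMM-normalized CPM of CYP26B1, CYP27B1, CYP2D7 and CYP4F22 in each of the 9 libraries, by group; circles and triangles mark libraries on sides A and B of the first principal component, and bars the mean with SD of 3 libraries. EMX1-X1 libraries of CYP26B1, CYP27B1 and CYP2D7 lie above all control libraries, while CYP4F22 overlaps between all groups.

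The other expressed P450 genes had edgeR p-values from 0.0625 to 0.981 in the 3 comparisons and overlapped in each. CYP20A1 was at 29.4 ± 2.78 CPM (SD, n = 3) in vector control, 24.8 ± 6.55 in EMX1-FL and 21.1 ± 4.91 in EMX1-X1. Its log2 fold change was -0.25 with EMX1-FL and -0.48 with EMX1-X1 (95% interval -0.98 to 0.03). CYP3A5 (chr7:99648194-99679998, minus strand) was at 5.23 ± 2.28 CPM in EMX1-FL and 3.19 ± 1.15 in EMX1-X1, a log2 fold change of 0.71 with an interval of -0.07 to 1.49. That difference between isoforms passed the threshold for DEGs without EMX1-FL 1 (1.01) and without EMX1-X1 1 (1.05), and fell to 0.344 without EMX1-FL 2. Within side A it was 0.435 and within side B 0.195, and in all 3 groups CYP3A5 was lower in side B than in side A.

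CYP2R1 and CYP4V2 were the most tightly measured. CYP2R1 had log2 fold changes of 0.09 (95% interval -0.32 to 0.49) with EMX1-FL and -0.03 (-0.43 to 0.38) with EMX1-X1, and CYP4V2 had -0.05 (-0.44 to 0.34) and -0.06 (-0.45 to 0.34). CYP2J2 was at 0.01 (-0.56 to 0.57) and -0.21 (-0.78 to 0.36), and CYP39A1, with fewer counts, at 0.21 (-0.63 to 1.05) and 0.07 (-0.77 to 0.92). Of the 4 tested genes below the expression threshold, CYP4F11 did not overlap between EMX1-FL and vector control (log2 fold change -0.50, edgeR unadjusted p = 0.376), on few counts. In all, groups did not overlap for 2 of the 15 with EMX1-FL (13.3%), 3 with EMX1-X1 (20%) and 1 between isoforms (6.67%), against 10.5%, 14.7% and 8.38% of all genes tested. The first 2 were CYP27B1 and CYP4F11, the next 3 CYP26B1, CYP27B1 and CYP2D7, and the last CYP2D7. Of the 15 genes, 4 were higher in side B than in side A in every group (CYP26B1, CYP27B1, CYP2W1 and CYP4F22), CYP3A5 and CYP2R1 were lower, and 9 were mixed. The part of the sides in these differences beyond the values given was not tested. CYP2W1 stood out on single libraries, since EMX1-FL 1 and EMX1-X1 2, both of side B, had 58 and 71 read pairs and the other 7 libraries had 13 to 26.

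The summed level of the 53 genes was 95.2 ± 7.89 TPM in vector control, 98.0 ± 4.09 in EMX1-FL and 111 ± 8.26 in EMX1-X1 (SD, n = 3). The EMX1-X1 libraries, at 104, 120 and 110, lay above the other 6, which were at 86.8 to 102. TPM is a level per length, so a read pair on a short gene adds more to this sum. In read pairs, not corrected for depth, the 53 genes had 2985, 3044 and 3048 in EMX1-X1. They had 2750, 2987 and 2880 in vector control and 2681, 3032 and 2447 in EMX1-FL, so there the groups overlapped. CYP4F22, CYP2R1 and CYP20A1, the highest genes of vector control, together held 61.4 to 68.8% of the sum there, 52.6 to 59.8% in EMX1-FL and 58.7 to 60.7% in EMX1-X1.

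The electron donors of these enzymes were present. POR was at 73.7 to 89.8 TPM in vector control, FDXR at 82.4 to 100.1, FDX1 at 27.99 to 34.6, and CYB5A, which donates electrons to some P450 reactions, at 5.81 to 7.03. Their log2 fold changes were -0.13, -0.12, 0.05 and 0.12 with EMX1-FL and 0.12, 0.46, -0.24 and 0.19 with EMX1-X1, in the same order. None had an edgeR unadjusted p under 0.05 in any comparison, the lowest being 0.0589 for FDXR between isoforms. POR, FDXR and CYB5A were higher in side B in all 3 groups. Of the 12 electron transfer genes 11 were tested, and 0, 1 and 0 had a p under 0.05 in the 3 comparisons (0%, 9.09% and 0%, against 5.8%, 8.11% and 7.63% of all genes tested). Of the 12 heme synthesis and breakdown genes all were tested, with 0, 2 and 1 (0%, 16.7% and 8.33%).

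Of the factors named above for hepatic P450 transcription, HNF4A and NR1I2 were nearly absent, while NR1I3 and AHR had low levels that could be tested. HNF4A and NR1I2 had 0 counts in every vector control library. HNF4A had 1 count each in EMX1-FL 1 and 2, and NR1I2 had 1 count each in EMX1-FL 2 and EMX1-X1 1. NR1I3 was at 1.88, 2.55 and 2.12 TPM in vector control, although 20.1% of its exon bases overlap TOMM40L. In CPM it was at 1.67, 2.36 and 2.14 in vector control, 1.24, 1.35 and 1.25 in EMX1-FL and 2.5, 1.58 and 2.18 in EMX1-X1, so EMX1-FL was below both other groups without overlap. Its log2 fold change was -0.68 with EMX1-FL (edgeR unadjusted p = 0.0456, adjusted p = 0.851), 0.02 with EMX1-X1 (edgeR unadjusted p = 0.946, adjusted p = 0.987) and -0.70 between isoforms (edgeR unadjusted p = 0.0401, adjusted p = 0.611). The differences with EMX1-FL and between isoforms were -0.47 and -0.74 within side A and -0.60 and -0.44 within side B.

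AHR, the receptor of dioxin and related compounds, was called with EMX1-FL. It was at 1.03, 1.18 and 0.989 CPM in vector control, 1.73, 2.99 and 3.83 in EMX1-FL and 2.25, 2.29 and 1.78 in EMX1-X1, and all 6 overexpression libraries were above the control. The log2 fold change was 1.42 with EMX1-FL (standard error 0.34, edgeR unadjusted p = 0.00137, adjusted p = 0.216) and 0.98 with EMX1-X1 (standard error 0.34, edgeR unadjusted p = 0.0145, adjusted p = 0.548). Within side A these differences were 1.28 and 0.78, and within side B 0.58 and 0.76, shrunk by the added 0.5 CPM. The counts were 24 to 83 read pairs, and 35.2% of its exon bases overlap AC019117.4 and AC073332.1. CYP1A2, a target of AHR in liver, had 0 counts in the control libraries and 8 in all, and so could not be tested. Among the 19 receptors and factors 15 were tested, with 1, 0 and 0 called at the threshold for DEGs, against 2.42%, 2.5% and 1.42% of all genes tested. At a p under 0.05 with any fold there were 2, 5 and 3 (13.3%, 33.3% and 20%), against 5.8%, 8.11% and 7.63%.

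Of the remaining lists, TBXAS1, the P450 that makes thromboxane, was called with EMX1-FL, against 2.42% of all genes tested. It is 1 of 2 P450 genes listed under other symbols and so is not among the 53. It was at 1.11, 1.13 and 1.24 CPM in vector control, 3.02, 2.78 and 1.48 in EMX1-FL and 1.96, 1.29 and 1.49 in EMX1-X1 (log2 fold change with EMX1-FL 1.06, standard error 0.35, edgeR unadjusted p = 0.0102, adjusted p = 0.552). Within side A the difference with EMX1-FL was 0.65, and within side B it was 1.02. It was no longer called without EMX1-FL 1 (0.88) or without EMX1-FL 2 (0.92). SULT2B1, a sulfotransferase of cholesterol and steroids, was called with EMX1-X1, at 0.257, 0.611 and 0.742 CPM in vector control and 0.874, 2.04 and 1.45 in EMX1-X1 (log2 fold change 1.43, standard error 0.59, edgeR unadjusted p = 0.0321, adjusted p = 0.579). In EMX1-FL it was at 1.77, 0.463 and 0.647 CPM, with EMX1-FL 1 apart from the other 2, and it was higher in side B than in side A in every group. The difference with EMX1-X1 was 0.58 within side A and 0.84 within side B. At the low levels of TBXAS1 and SULT2B1 the added 0.5 CPM shrinks the values within sides. They therefore cannot be set against the edgeR fold changes. Left out singly, vector control 1 or 2 or EMX1-X1 2 or 3 each ended its call, with log2 fold changes of 1.09, 1.51, 1.11 and 1.42. SULT2B1 was the only one called of the 16 tested among 39 genes of conjugation and hydrolysis, against 2.5% of all genes tested with EMX1-X1, and none of the 7 tested among 10 retinoid handling genes had an edgeR p under 0.05 in any comparison.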

How the data were processed

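The 9 libraries, RNA-seq of SNU-398, took their groups from the labels. What the authors deposited are unnormalized read-pair counts for each gene name, made with featureCounts 2.0.1 on exons of Ensembl release 99 (GRCh38) by the header of the table. The submitters' processing notes name version 2.0.6, fastp, STAR and bcl2fastq 2.1.7, and the study's methods name RSEM. Expression was deposited by the authors as log2(TPM + 1), which a recalculation from counts and gene lengths matched to within 5.0e-06. Counting ignored strand, and by the program's default a pair on more than 1 gene was left out.

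The counts were fitted with edgeR 4.0.16 in R 4.3.3 (TMM, filterByExpr, quasi-likelihood F test on all 9 libraries, no term but the group), and p-values were adjusted by Benjamini-Hochberg over 18574 genes. Standard errors are the log2 fold change over the root of F, and 95% intervals use the moderated degrees of freedom. A two-sided exact permutation test of log2 CPM, run on each gene alone, cannot go below 0.1 with 3 libraries against 3, the value of all groups that do not overlap. Differences within a side are of log2(CPM + 0.5), where the pseudocount shrinks the fold of low genes. Depth was 21562703 to 25197970 counts per library. In a simulation of EMX1-FL against vector control (18574 genes), 18% of 111 genes changed by 1 on the log2 scale and 84.3% of 89 changed by 2 were called at an adjusted p under 0.05.

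Alternatives were other factors (RLE, upper quartile, none), DESeq2 1.42.0, limma 3.58.1 at pseudocounts of 1 and 0.1 TPM, no filter beyond 1 count, a minimum of 10 counts in every library, a fit of the 6 libraries compared, a replicate block, the side as a covariate, and each library left out. Python 3.11.15, pandas 2.3.3 and matplotlib 3.10.9 made tables and plots.

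Named with values were the expressed P450 genes, any P450 or partner gene called, and POR, FDX1, FDXR, CYB5A, AHR, NR1I2, NR1I3, HNF4A and VDR. Other genes named with a value were chosen after their values were seen. The P450 genes, roles, partner lists and markers were chosen with earlier results of these data known. GSTT1 of the conjugation list was not analysed here. Gene positions and exon overlaps come from the count table. Some values of single genes are not reported here.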

Additional observations from a re-analysis of the deposited data

Results flagged for a closer look

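For 3 of the genes covered by the rule for named genes, the effect of EMX1-FL differed from that of EMX1-X1, each against vector control, at an unadjusted p under 0.05 in edgeR's direct comparison, and none passed after adjustment over all genes tested. That unadjusted p was reached by 7.63% of all genes tested, by 2 of the 15 tested P450 genes and by 3 of the 15 tested receptors and factors. CYP2D7 differed by a log2 fold change of -0.79 (EMX1-FL against EMX1-X1, lower in 3 of 3 EMX1-FL libraries), with EMX1-FL near vector control (0.17) and EMX1-X1 above it (0.96). CYP4F22 differed by -0.59, with EMX1-FL at -0.43 and EMX1-X1 at 0.16 against vector control, and the groups overlapped. NR1I3 differed by -0.70, with EMX1-FL at -0.68 and EMX1-X1 at 0.02, and the groups did not overlap. Groups of 3 libraries were not tested for outlying libraries.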

How the results depend on the processing

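The number of expressed P450 genes was 11, and 11 to 13 under the other expression thresholds and with each vector control library left out, with CYP2W1 and CYP4F11 the genes added. None of the 53 P450 genes was called at an adjusted p under any alternative run. At the threshold for DEGs the count of 0 became 1 in each comparison with no filter beyond 1 count (CYP2A7 with EMX1-FL and with EMX1-X1, CYP4X1 between isoforms, where more low genes were tested), and 1 with EMX1-X1 for limma on log2(TPM + 0.1). With libraries left out it was 0 with EMX1-FL, 0 to 1 with EMX1-X1 (CYP27B1 without vector control 1, CYP2D7 without vector control 2 or EMX1-X1 1) and 0 to 3 between isoforms (CYP2W1, CYP3A5 and CYP2D7 without EMX1-FL 1, CYP3A5 and CYP4F11 without EMX1-X1 1). Over all genes tested the number called ranged from 142 to 947 around 450 with EMX1-FL, from 177 to 962 around 464 with EMX1-X1 and from 107 to 1108 around 263 between isoforms.

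Of 660 values of the expressed P450 genes under 20 alternatives, 610 kept their direction and their side of the threshold, 7 passed it, and 43 reversed, 26 of them with a library left out. The reversed values were of genes not called, and their cause was not tested. CYP2J2 with EMX1-FL was at -0.00661 with RLE factors, -0.00638 with DESeq2, -0.00407 with no filter and -0.00273 with only the 6 libraries compared. CYP2R1 with EMX1-X1 was at 0.00107 with library size alone, 0.0669 and 0.0703 with limma (pseudocounts 1 and 0.1) and 0.0567 with the side as a covariate. In the same order of limma fits, CYP4V2 was at 0.039 and 0.0464 with EMX1-FL, 0.0403 and 0.0491 with EMX1-X1 and -0.00134 and -0.00269 between isoforms, where it was also at -0.00229 with no filter and -0.00885 with the side. With the side, CYP2D6 and POR with EMX1-X1 were at -0.0401 and -0.0772, and CYB5A between isoforms at 0.0208. Of 537 values of partner genes, 509 kept direction and side, 6 passed the threshold, 11 fell short of it and 11 reversed. Limma on log2(TPM + 1) ended the calls of AHR (0.649) and TBXAS1 (0.548) with EMX1-FL and SULT2B1 (0.809) with EMX1-X1, and limma on log2(TPM + 0.1) that of TBXAS1 (0.991). On these scales the pseudocount shrinks the fold of low genes.

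With libraries left out, the ranges that crossed 0 were as follows. With EMX1-FL they were -0.088 to 0.33 for CYP2D7, -0.12 to 0.19 for CYP2J2, -0.034 to 0.22 for CYP2R1, -0.13 to 0.58 for CYP39A1, -0.084 to 0.58 for CYP3A5, -0.15 to 0.016 for CYP4V2, -0.059 to 0.17 for FDX1 and -0.45 to 0.030 for FDXR. With EMX1-X1 they were -0.19 to 0.22 for CYP2D6, -0.13 to 0.029 for CYP2R1, -0.20 to 0.44 for CYP39A1, -0.16 to 0.00819 for CYP4V2, -0.14 to 0.18 for NR1I3 and -0.0089 to 0.28 for POR. Between isoforms they were -0.014 to 0.43 for CYP20A1, -0.47 to 0.013 for CYP26B1, -0.19 to 0.019 for CYP27B1, -0.18 to 0.31 for CYP39A1, -0.061 to 0.087 for CYP4V2 and -0.18 to 0.012 for CYB5A.

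Libraries of different groups with the same replicate number had correlations of their deviations from -0.522 to 0.29 (3 of 9 pairs over 0.1), so the numbers do not pair them. With the replicate number as a block, 0 P450 genes were called in each comparison, 385, 407 and 208 of all genes were called, and SULT2B1 with EMX1-X1 (1.43) lost its call (edgeR unadjusted p = 0.0603). Few counts limit CYP2W1, CYP46A1, CYP4F11 and CYP2E1, whose intervals are the widest.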

Other observations

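Among the P450 genes with too few counts to test, 15 had 0 counts in all vector control libraries and at least 1 in an overexpression library. This sets 6 overexpression libraries against 3 of vector control, and the share over all genes was not counted. The number is therefore no result about these genes. Of the 15, CYP2A7 had the most: 5, 0 and 6 read pairs in EMX1-FL and 0, 0 and 9 in EMX1-X1. In vector control it had 0 in each library, and CYP2A6, its neighbour and near-identical copy, had 2 read pairs over all 9. CYP4X1, an orphan P450, had its highest count, 17 read pairs or 1.25 TPM, in EMX1-FL 3, and 0 in EMX1-X1 2. CYP2A7 and CYP4X1 were chosen after their values were seen.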
